A study of Mus musculus with 4 samples.

Results

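The genes described here are the 83 genes for proteins of the cytosolic ribosome that were measured in single cells from mouse ascites. They are the gene symbols that begin with Rpl, Rps, Rplp or Rpsa, without the Rps6k kinases and without symbols marked as pseudogenes (-ps), and with at least 1000 UMIs over the 4 libraries. A UMI (unique molecular identifier) marks 1 captured transcript. Of 32285 genes in the files, 86 had such a symbol, and Rpl10l, Rpl39l and Rpl3l stayed under 1000 UMIs. The 83 members hold 46 proteins of the large subunit and 31 of the small subunit. The other 6 symbols are Rpl22l1, Rps27l, Rps27rt, Rpl36al and Rpl7l1, which are relatives or copies of ribosomal protein genes, and Rps19bp1, which codes for a protein that binds RPS19 and is no part of the ribosome. Fau and Rack1 also code for proteins of the small subunit, but under other symbols, and were outside the rule.

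The study treated female FVB mice that carried tumors of Br-Luc cells, a mouse ovarian cancer line injected into the peritoneum, with siRNA formulated in jetPEI. It gives the genotype of this line as p53-/-, brca1-/-, myc and Akt-myr. Ascites cells were loaded for droplet 3' RNA sequencing 6 weeks after injection, in 2 libraries of mice given the control siRNA (siCont) and 2 libraries of mice given siFXR1-LNA, an siRNA against the RNA-binding protein FXR1 with locked nucleic acids. The study's methods name the control siCont-LNA and state that ascites of 3 mice was pooled, so each library is a pool. The p-values between groups within a class measure the spread between pools. Those between classes measure how much class differences vary from pool to pool, since classes are compared within a library. Nothing in the labels says whether the libraries of a group came from different days or runs. The study's methods set aside one siFXR1-LNA replicate that had fewer reads, which the labels do not mark, and both siFXR1-LNA libraries are used here.

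Fxr1, the target, had 81.3 and 62.1 CPM (UMI counts scaled to a common library total, hemoglobin left out) in the siCont libraries and 116 and 81.8 in the libraries labelled siFXR1-LNA. It was therefore not lower over all cells where the label names the siRNA against it, and the groups below are called by their labels. The study reports lower Fxr1 expression in its epithelial cells after siFXR1-LNA, a narrower set of cells than this total. The libraries differed in cell makeup, and the part of makeup in these Fxr1 values was not tested. The libraries held 17309 to 54665 barcodes and 78179267 to 113606837 UMIs. The median depth of the kept cells was 1349 to 2653 UMIs. Hemoglobin transcripts were 9.12% to 41.1% of a library's UMIs, more in siCont, and all shares below leave them out. The libraries shared 598 to 2882 barcode sequences in pairs, 3.45% to 7.88% of the smaller library of a pair. Most barcodes of siFXR1-LNA replicate 1 (41031 cells) fell into an unnamed cluster led by Sprr1a, Ndufa4l2 and Car9, which held 5386 cells of replicate 2 and 54 and 45 cells of the siCont libraries. Its member share was 13.4% and 12.1% in the siFXR1-LNA libraries. It raised 3 of 5 epithelial and 3 of 5 mesothelial markers, a tie that the mesothelial-like class below also had. In the first round of naming it raised under 3 markers of any type. It stayed unnamed and entered no comparison.

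Ribosomal proteins are made in near-equal amounts and assemble with ribosomal RNA in the nucleolus. Each is part of the small subunit, which reads the mRNA, or of the large subunit, which joins amino acids. Their mRNAs are among the most abundant of a cell and begin with a C and a run of pyrimidines at the 5' end, the TOP motif, through which mTORC1 and LARP1 control their translation. Resting lymphocytes are small cells in which these transcripts are known to make up a large part of the mRNA. The 3' counts measure mRNA and say nothing of ribosome numbers or translation.

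The promoters show what the members share in sequence and where the relatives depart from it. The 83 members lie on 19 chromosomes in GENCODE vM21 (GRCm38), and 63 of them matched 1 or more start site windows in RefSeq (GRCm38.p6), 74 windows in all. A C followed by at least 7 pyrimidines stood on the sense strand within 50 bases of the start in 57 of 74 member windows (77.0%), against 28.8% of 32851 windows of all genes. CGGAAG, searched on both strands from 250 bases before to 50 after the start, was in 62.2% of member windows and 16.9% of all. AAGATGGC, searched likewise, was in 10.8% against 2.75%. TATAAA within 40 bases before the start was in 1.35% of member windows, that of Rpl22l1 alone, and in 2.31% of all. The searches allowed motifs to overlap, and a match is a run of letters and no proof of a site. The windows of 5 genes are shown because the values below turn on them, from 40 bases before the start to 20 after it, with the pyrimidine runs in capitals. They are Rps27 and its relatives Rps27l and Rps27rt, and Rpl22 with its relative Rpl22l1. Rps27 is at chr3:90213629-90213688 on the minus strand, Rps27l at chr9:66946046-66946105 on the plus strand and Rps27rt at chr9:114982720-114982779 on the minus strand. Rpl22 is at chr4:152325686-152325745 and Rpl22l1 at chr3:28805468-28805527, both on the plus strand.
Rps27: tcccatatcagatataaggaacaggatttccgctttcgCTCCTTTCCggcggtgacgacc
Rps27l: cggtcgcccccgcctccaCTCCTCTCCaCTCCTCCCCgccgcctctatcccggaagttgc
Rps27rt: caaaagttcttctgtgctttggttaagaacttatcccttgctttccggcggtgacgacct
Rpl22: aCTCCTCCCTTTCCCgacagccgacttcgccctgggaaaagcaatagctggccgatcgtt
Rpl22l1: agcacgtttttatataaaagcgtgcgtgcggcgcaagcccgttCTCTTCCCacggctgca
The run spans the start in Rps27 and follows it in Rpl22l1, while in Rpl22 and Rps27l it lies upstream. The Rps27rt window holds no such run. Rpl22 and Rps27l each have a second start site window, at chr4:152324396-152324455 and chr9:66946373-66946432 on the plus strand, that holds no such run either.

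Cells were sorted into 8 classes by marker genes, without the members. No ribosomal protein gene of the rule was among the 2000 variable genes that defined the clusters. The names carry "-like" because they rest on markers alone. The mesothelial-like class (2858 cells) is led by Kcnd2, Zfpm2 and Tenm3. It raised 3 of 5 mesothelial and 3 of 5 epithelial markers, so that tumor cells of the injected line cannot be told apart from mesothelium in it. Of the T cell clusters, 951 cells led by Themis and Camk4 raised only 2 T cell markers and stayed unnamed, with a member share of 4.70% to 8.86% per library. NK cell-like cells were under 10 in 1 library and were not tested. In 1 library their share was 13.9% on 5 cells, and in the other libraries it was 16.7% to 19.0%.

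Among the 8 classes, members took the largest part of the transcripts in T and B cell-like cells, as a mean over 4 libraries. They took the smallest in mesothelial-like and granulocyte-like cells. In T cell-like cells they made up 16.3% and 21.4% of UMIs in siCont replicates 1 and 2 and 17.6% and 18.5% in siFXR1-LNA replicates 1 and 2. The mean was 18.5% ± 2.15 (SD, n = 4). B cell-like cells had, in the same order, 19.2%, 20.03%, 16.03% and 17.4%, a mean of 18.2% ± 1.80. The difference between T and B cell-like cells was smaller than their spread, with T cell-like cells higher in 3 of 4 libraries and lower in siCont replicate 1. Dendritic cell-like cells had 14.6%, 14.5%, 16.8% and 17.4%, a mean of 15.8% ± 1.53, above the B cell-like share in siFXR1-LNA replicate 1. The erythroid-like share was above all of these in that library, on 22 cells.

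Erythroid-like cells had 9.92% and 7.92% in the siCont libraries, on 22126 and 15784 cells, and 21.3% and 14.9% in the siFXR1-LNA libraries, on 22 and 57 cells. In those 2 libraries 3 and 9 cycling cells had 26.4% and 22.1%, and the other 19 and 48 cells 14.0% and 11.2%. Mast cell- or basophil-like cells had 9.60%, 9.02%, 14.4% and 11.9% on 70 to 113 cells. Macrophage-like cells had 8.47%, 10.2%, 11.99% and 11.02%, a mean of 10.4% ± 1.49. These middle classes overlapped one another in range. Granulocyte-like cells had 6.95%, 4.54%, 9.71% and 7.33%, a mean of 7.13% ± 2.12. Mesothelial-like cells had 6.00%, 5.16%, 5.49% and 7.24%, a mean of 5.97% ± 0.914. Mesothelial-like cells were among the deepest, with median UMIs of 5239 to 8525.5 per library. Their share of Malat1, a nuclear RNA, was the highest of the 8 classes in every library (1.96% to 3.08%). Their mitochondrial share (3.09% to 5.20%) was the highest in 3 libraries and lay below that of mast cell- or basophil-like cells (3.59%) in siCont replicate 2. The part of these in the low member share was not tested. Medians over single mesothelial-like cells were 2.66%, 1.21%, 4.08% and 3.49%, below the share of the summed UMIs in every library.

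**Figure D1:**
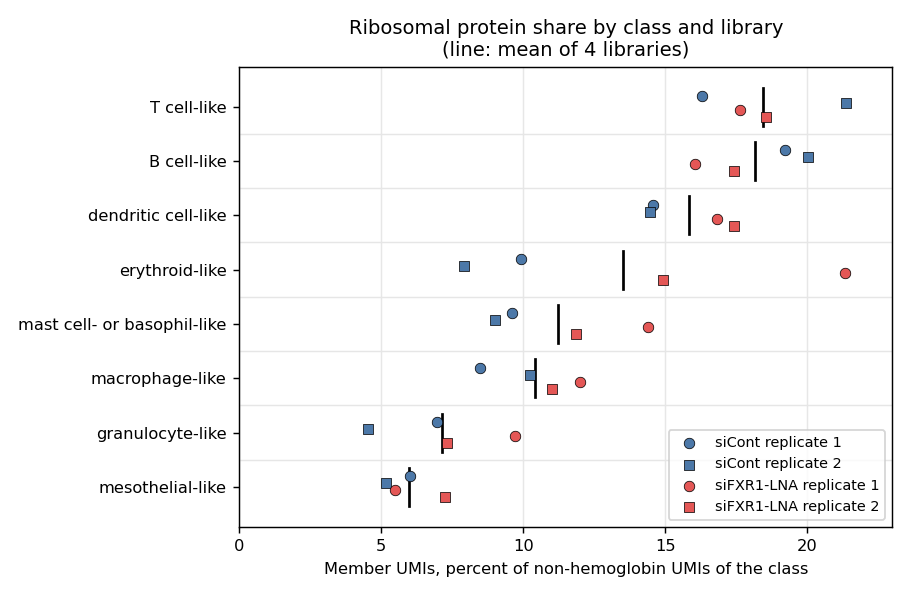
Member UMIs as a percent of the non-hemoglobin UMIs of a class (x axis, linear from 0), for 8 classes and 4 libraries, with siCont in blue and siFXR1-LNA in red. Lines mark the mean of 4 libraries, which falls from 18.5% in T cell-like to 5.97% in mesothelial-like cells.

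Of the 28 pairs of classes, 19 differed the same way within all 4 libraries. The exact sign-flip permutation test (two-sided) gives no p below 0.125 with 4 libraries, and the adjusted p of these 19 pairs was 0.184, so that no pair passes a threshold of 0.05. T cell-like exceeded mesothelial-like cells by 1.63 ± 0.311 in log2 of the share (SD over 4 libraries), B cell-like cells by 1.61 ± 0.287 and dendritic cell-like cells by 1.41 ± 0.169. T cell-like exceeded granulocyte-like cells by 1.42 ± 0.584. Granulocyte-like and mesothelial-like cells, the neighbours at the low end, differed by 0.217 ± 0.436 with 3 of 4 libraries one way (exact p = 0.375, adjusted 0.420). T cell-like and B cell-like cells differed by 0.0203 ± 0.173 (exact p = 1.0).

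Gene by gene, each class was compared with the mean of the other 7 by edgeR's quasi-likelihood test on summed UMIs with the library as a block, over 14057 genes. Called means an adjusted p under 0.05. In dendritic cell-like cells 81 of 83 members were called higher, where 27.6% of all genes were. The other 2 were Rps19bp1 and Rpl22l1. In T cell-like cells 74 were higher (18.6% of all genes) and 0 lower. In B cell-like cells 72 were higher (17.9%) and 1, Rps27l, lower (14.7%). In mesothelial-like cells 82 of 83 were lower (30.6% of all genes), all but Rpl7l1, by a median of 1.58 in log2 over the 83. In granulocyte-like cells 67 were lower (17.2%), with a median log2 difference of -0.549 over the members and 0.0122 over all genes. Both subunits took part: in mesothelial-like cells 46 of 46 large and 31 of 31 small subunit members were lower, and in dendritic cell-like cells the same numbers were higher.

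The other classes gave counts that rest on the scaling or on 1 library. Macrophage-like cells had 15 members higher (31.0% of all genes) and 0 lower with TMM scaling, but 2 higher and 10 lower when scaled by total UMIs. Without siFXR1-LNA replicate 1 or 2 the count of 15 fell to 8 or 6, and with cells named from their own markers to 3. A count of 15 of 83 is below the background. Erythroid-like cells had 20 higher (25.0%), a share near the background, which became 5 with total UMIs, 5 and 9 without siCont replicate 1 or 2 and 12 without siFXR1-LNA replicate 2. Mast cell- or basophil-like cells had 46 lower (5.03%), which became 5 with total UMIs, 18 and 20 without siCont replicate 1 or 2, 12 without siFXR1-LNA replicate 2 and 0 with own markers. In this class TMM put the median of all genes at -0.322 in log2. The member median was -0.528, so that part of the difference is shared with other genes. The granulocyte-like count of 67 became 2 when each cell was named from its own marker UMIs and 38 with at least 500 genes per cell.

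Fau and Rack1, ribosomal proteins with other symbols, went the way of the members where they passed the test. Fau, whose product is cut into a ubiquitin-like protein and RPS30, was 0.92 ± 0.12 higher in dendritic cell-like cells and 1.66 ± 0.15 lower in mesothelial-like cells (log2 ± SE, edgeR adjusted p = 2.27e-07 and 7.65e-11). Rack1, a signalling scaffold on the small subunit, was 0.65 ± 0.16 higher in T cell-like cells (edgeR adjusted p = 0.0015) and fell by 1.39 ± 0.18 in mesothelial-like cells. Both genes were called higher in T cell-like and lower in mesothelial-like cells.

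The balance of the subunits was close across classes. Large subunit members took 50.7% to 54.1% of member UMIs as class means, and small subunit members 44.6% to 48.5%. Within dendritic cell-like cells the large subunit share was 51.2%, 50.7%, 51.2% and 50.8%. In mesothelial-like cells it was 53.9%, 53.2%, 54.3% and 54.8%, above every library of the dendritic cell-like class. The P stalk (Rplp0, Rplp1 and Rplp2), which recruits elongation factors to the large subunit, took 4.22% of member UMIs in mast cell- or basophil-like cells and 5.73% in erythroid-like cells. Rpl5 and Rpl11, which carry 5S RNA and can bind MDM2, took 1.88% to 2.19% together. In macrophage-like cells Rpl5 held 0.654%, 0.611%, 0.635% and 0.561% of member UMIs and Rpl11 1.63%, 1.67%, 1.52% and 1.47%. Neither was called relative to the members in mesothelial-like or dendritic cell-like cells.

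Single members were unequal in level. The counts are of 3' ends and are not divided by length, so the shares below compare transcripts and not bases. Rps24 was the highest, with 2.83% of member UMIs as a mean over classes, and others among the most abundant were Rpl13 (2.57%), Rps16 (2.30%), Rpl23 (2.27%), Rpl32 (2.09%), Rpl19 (2.04%), Rpl30 (2.04%), Rps9 (2.03%) and Rps20 (2.02%). Rpl32 was the most even, between 2.01% in dendritic cell-like and 2.16% in mesothelial-like cells. At the other end Rps27 ranged from 0.491% in mast cell- or basophil-like to 1.71% in B cell-like cells, and Rpl7l1 from 0.0251% to 0.106%. Rps27rt was the lowest member, at 0.0174% on average.

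To separate members that depart from the rest, each class was compared again with the summed member UMIs as the library size, over 14810 genes. On this relative scale 55 of 83 members were called in at least 1 class and 28 in none. The counts of members higher and lower were 9 and 18 in T cell-like, 7 and 16 in B cell-like, 7 and 12 in dendritic cell-like, 5 and 1 in erythroid-like, 7 and 8 in mast cell- or basophil-like, 7 and 6 in macrophage-like, 11 and 9 in granulocyte-like and 17 and 11 in mesothelial-like cells. The background of all genes is shifted on this scale by construction, with 5.86%, 6.08%, 9.20%, 13.5%, 8.70%, 21.0%, 41.8% and 78.9% called higher and 54.2%, 57.2%, 54.1%, 22.2%, 0.486%, 19.1%, 4.19% and 4.31% lower in the same order. The member counts were lower with fewer libraries: over all classes 70 higher calls became 35, 46 and 32 without siCont replicate 1, siCont replicate 2 or siFXR1-LNA replicate 2, and 81 lower calls became 34, 44 and 32. Of the 76 values that the naming rule gives, the 5 highest and 5 lowest called per class, 46 kept their call in each fit without 1 library. The members below are among those 46 unless stated.

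Rps27, a small subunit protein with a zinc finger, was the member with the widest spread that was well counted. In B cell-like cells it took 1.33%, 1.56%, 1.56% and 2.41% of member UMIs, and in T cell-like cells 1.23%, 1.41%, 1.43% and 2.09%. In mast cell- or basophil-like cells it took 0.391%, 0.416%, 0.531% and 0.624%, on 26 to 80 UMIs. The lymphocyte-like and mast cell- or basophil-like ranges did not overlap. Relative to the members it was 0.93 ± 0.10 higher in B cell-like cells and 0.76 ± 0.10 in T cell-like cells (log2 ± SE, edgeR adjusted p = 9.35e-09 and 6.23e-07). It was lower by 1.12 ± 0.13 in mast cell- or basophil-like cells, 0.51 ± 0.12 in erythroid-like cells and 0.46 ± 0.11 in macrophage-like cells. Rps27 was also called higher in granulocyte-like cells, by 0.40 ± 0.10 (edgeR adjusted p = 0.0020). It took 0.967%, 1.26%, 1.06% and 1.69% of member UMIs there. Whether that call held in each fit without 1 library is not given here.

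Rps27l, the relative of Rps27 and a p53 target gene, ran the other way in lymphocyte-like cells. Its shares of member UMIs were 0.0998%, 0.0704%, 0.155% and 0.0996% in B cell-like cells and 0.125%, 0.0600%, 0.154% and 0.0946% in T cell-like cells. In mesothelial-like cells they were 0.287%, 0.337%, 0.286% and 0.264%, above every lymphocyte-like value. Relative to the members Rps27l was lower by 1.13 ± 0.21 in B cell-like and 1.11 ± 0.21 in T cell-like cells (edgeR adjusted p = 9.17e-05 and 0.000123). It was called higher in granulocyte-like, mesothelial-like and macrophage-like cells, by 0.71, 0.55 and 0.48. The first and second of these calls were lost in 1 of the 4 fits without a library and that in macrophage-like cells in 3. Set against Rps27 UMIs, Rps27l came to 7.53%, 4.51%, 9.90% and 4.14% in B cell-like cells and to 56.8%, 64.6%, 28.5% and 19.6% in macrophage-like cells. In macrophage-like cells the siCont libraries lay above the siFXR1-LNA libraries with no overlap. The same held in dendritic cell-like (32.7%, 31.4%, 15.9% and 10.6%), mesothelial-like, erythroid-like and mast cell- or basophil-like cells. The last 2 rest on as few as 14 and 16 Rps27l UMIs in a library. In B cell-like, T cell-like and granulocyte-like cells the groups overlapped. The share of Rps27 itself was highest in siFXR1-LNA replicate 2 in all 8 classes.

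Rps27rt is a near-identical copy of Rps27. In 7 of the 8 classes its UMIs came to 1.18% to 2.49% of those of Rps27 as class means. Reads of the copies may be split or misplaced, and its values are uncertain for that reason. In mast cell- or basophil-like cells it had 0 to 1 UMIs per library, which gives no fold.

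**Figure D2:**
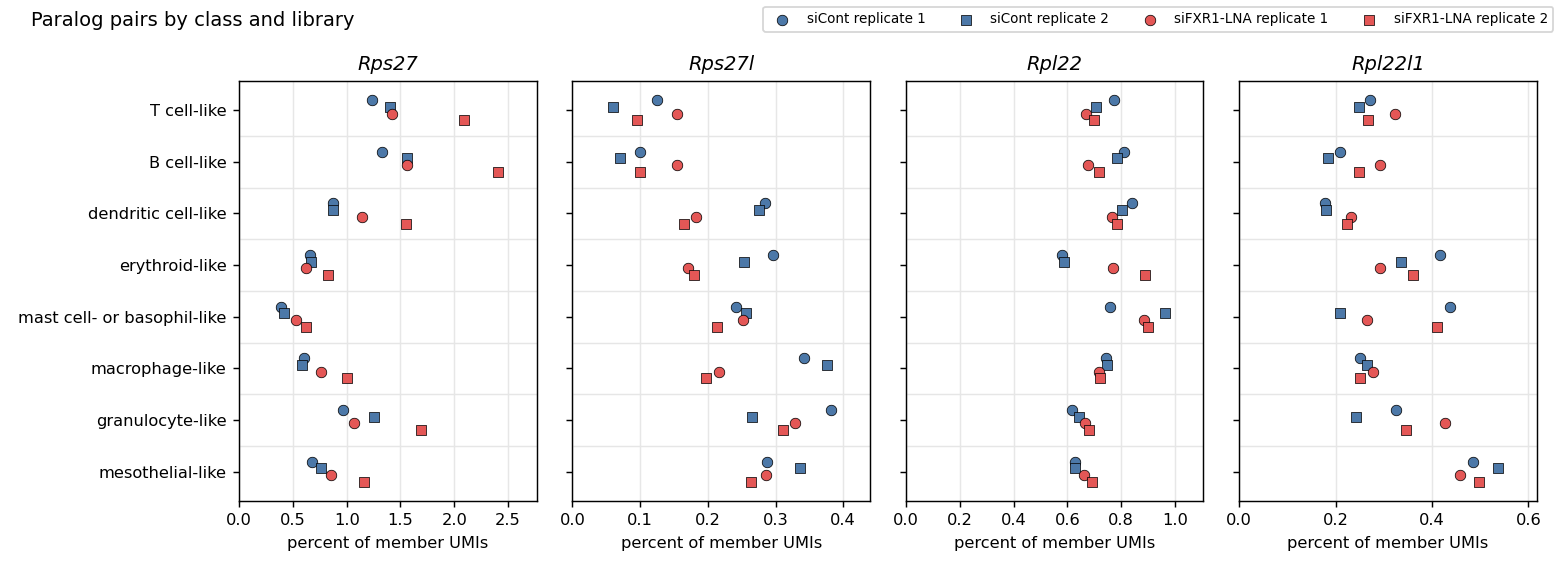
Share of member UMIs (x axes, linear from 0, own scale per panel) of Rps27, Rps27l, Rpl22 and Rpl22l1 in 8 classes and 4 libraries, with siCont in blue and siFXR1-LNA in red. Rps27 is highest and Rps27l lowest in the lymphocyte-like classes, and Rpl22l1 is highest in mesothelial-like cells.

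Rpl22l1, the relative of Rpl22, was the clearest departure in mesothelial-like cells beside the rare Rpl7l1 and Rps19bp1. It took 0.484%, 0.537%, 0.459% and 0.496% of their member UMIs against 0.178%, 0.179%, 0.233% and 0.223% in dendritic cell-like cells, with no overlap. Relative to the members it was 0.83 ± 0.14 higher in mesothelial-like cells and fell by 0.65 ± 0.16 in dendritic cell-like cells (edgeR adjusted p = 3.44e-06 and 0.000893). Set against Rpl22, it came to 77.1%, 85.4%, 69.2% and 71.8% in mesothelial-like and 21.1%, 22.3%, 30.3% and 28.5% in dendritic cell-like cells. In erythroid-like cells it came to 71.7%, 57.2%, 38.1% and 40.5%, so that their range overlapped that of mesothelial-like cells. Rpl22 itself took 0.628%, 0.628%, 0.662% and 0.691% in mesothelial-like and 0.841%, 0.803%, 0.767% and 0.783% in dendritic cell-like cells.

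Rpl7l1, which acts in the assembly of the large subunit, took 0.105%, 0.120%, 0.105% and 0.0941% of member UMIs in mesothelial-like cells. In T cell-like cells it took 0.0319%, 0.0208%, 0.0187% and 0.0288%. It was 1.36 ± 0.18 higher in mesothelial-like and 1.06 ± 0.21 lower in T cell-like cells relative to the members (edgeR adjusted p = 3.80e-08 and 0.000193). Rps19bp1, a nucleolar regulator of SIRT1, was 1.02 ± 0.19 higher in mesothelial-like and 0.71 ± 0.20 lower in T cell-like cells. Rps19bp1 was also called lower in mesothelial-like cells on the first scale, and Rpl7l1 was not.

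Rpl10, a protein near the peptidyl transferase center, was the member furthest above the other members in macrophage-like cells. It took 0.682%, 0.691%, 0.745% and 0.735% of their member UMIs, and 0.302%, 0.287%, 0.321% and 0.288% in T cell-like cells. Relative to the members it was 0.84 ± 0.12 higher in macrophage-like cells and lower by 0.59 ± 0.13 in T cell-like and 0.46 ± 0.13 in B cell-like cells (edgeR adjusted p = 5.88e-07, 0.000538 and 0.00367). Rpl36al, the relative of Rpl36a, was 0.63 ± 0.13 higher in macrophage-like cells. Its UMIs came to 146%, 114%, 89.9% and 83.1% of those of Rpl36a there, and to 74.7%, 54.0%, 43.6% and 39.8% in T cell-like cells. Rps29 was 0.45 ± 0.11 higher, and Rps21 and Rpl30 were lower by 0.46 ± 0.11 and 0.46 ± 0.10. Rpl35a, higher by 0.38, and Rpl8, lower by 0.30, lost their call in at least 1 of the fits without a library.

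Rpsa, also known as the laminin receptor, and Rps9 were 0.47 ± 0.10 and 0.40 ± 0.11 higher in dendritic cell-like cells relative to the members, and Rps2 and Rpl8 were 0.42 ± 0.10 and 0.41 ± 0.10 lower. Rps9 took 2.41%, 4.62%, 2.36% and 3.03% in granulocyte-like cells, where it was 0.73 ± 0.11 higher (edgeR adjusted p = 1.07e-06), with siCont replicate 2 above the other libraries. Rps4x, Rps20 and Rps24 were lower there by 0.58 ± 0.11, 0.42 ± 0.11 and 0.40 ± 0.11. Rps9 was lower in mesothelial-like cells, by 0.48 ± 0.12, with 1.57%, 1.59%, 1.49% and 1.20%.

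Rps24, the most abundant member, took 3.65%, 4.07%, 3.31% and 3.48% in T cell-like and 2.22%, 2.24%, 2.05% and 1.91% in mesothelial-like cells. It was 0.45 ± 0.10 higher in T cell-like and 0.41 ± 0.10 higher in B cell-like cells and fell by 0.44 ± 0.11 in mesothelial-like cells. Rpl12 and Rps15a were 0.51 ± 0.11 and 0.44 ± 0.10 higher in T cell-like cells. Rpl41, the shortest member, was lower in T cell-like (0.69 ± 0.16) and B cell-like cells (0.63 ± 0.16) and 0.54 ± 0.14 higher in mesothelial-like cells. In erythroid-like cells Rplp0 and Rps2 were 0.45 ± 0.11 and 0.40 ± 0.10 higher, and the siFXR1-LNA values there come from 22 and 57 cells. In mast cell- or basophil-like cells Rps19 was lower by 0.57 ± 0.10 and Rpl37 was 0.46 ± 0.10 higher.

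**Figure D3:**
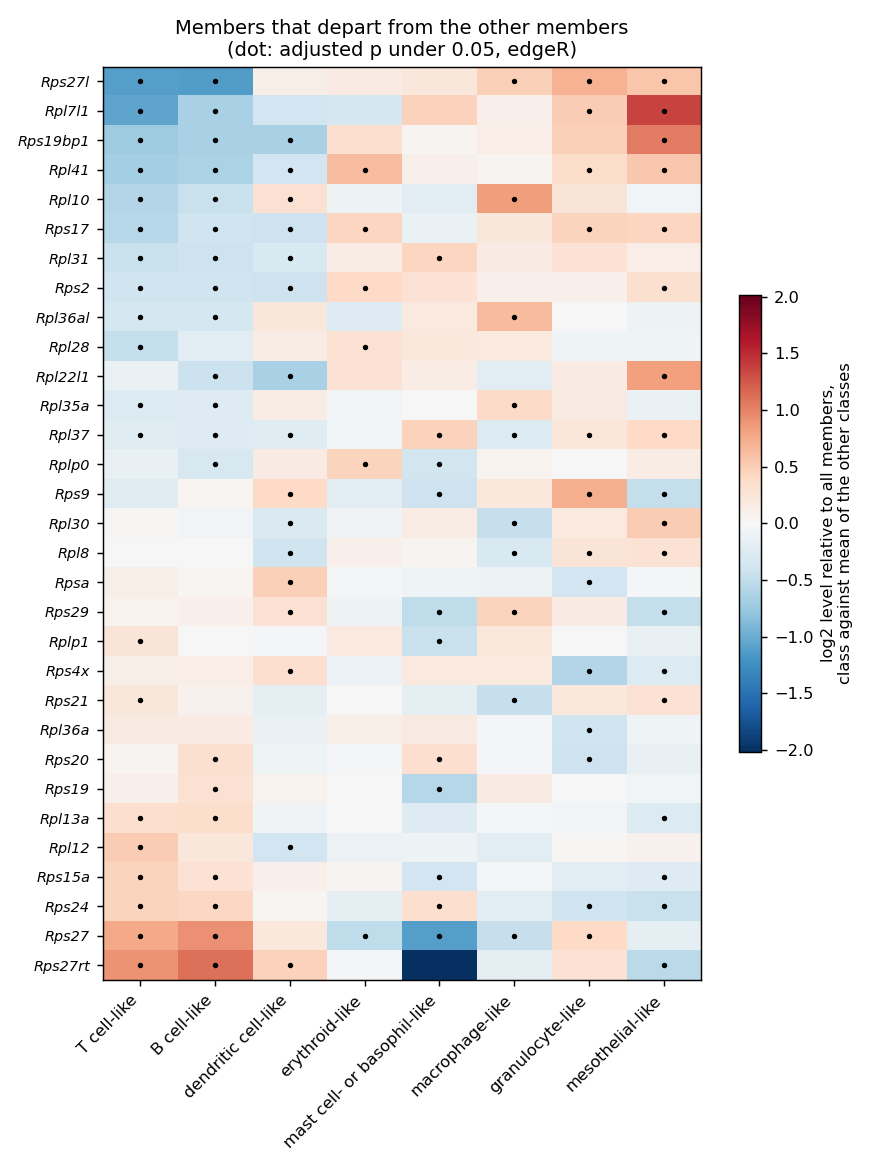
Log2 level relative to all members, a class against the mean of the other classes (color, from -2 to 2), for members called in at least 1 class (rows) and 8 classes (columns), with dots at an adjusted p under 0.05 in edgeR. Rps27l, Rpl7l1 and Rpl41 are low and Rps27 and Rps24 high in the T and B cell-like columns, and the dark Rps27rt cell in the mast cell- or basophil-like column rests on 0 to 1 UMIs per library.

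Between the groups, the member share was higher in both siFXR1-LNA libraries than in both siCont libraries in 5 classes and lower in 1. In macrophage-like cells it was 9.36% ± 1.25 in siCont and 11.5% ± 0.682 in siFXR1-LNA (SD, n = 2 each), a difference of 2.15 percentage points. The difference was 2.61 points in dendritic cell-like cells, 2.78 in granulocyte-like, 3.82 in mast cell- or basophil-like and 9.21 in erythroid-like cells. As medians over single cells the erythroid-like difference was 3.49, and with cells named from their own markers 2.93, while the mast cell- or basophil-like one was 0.382 with ribosomal protein symbols allowed among the variable genes and -0.831 with own markers. The share in B cell-like cells was 19.6% ± 0.568 in siCont and 16.7% ± 0.985 in siFXR1-LNA, a difference of -2.89 points. With hemoglobin kept in the total it was 15.93% and 16.67% in siCont and 14.82% and 16.74% in siFXR1-LNA, a difference of -0.521 points, and the groups overlapped. Hemoglobin made up 17.1% and 16.7% of the UMIs of B cell-like cells in siCont and 7.54% and 3.93% in siFXR1-LNA, and its part in the difference was not tested. In T cell-like and mesothelial-like cells the groups overlapped, but the medians over single mesothelial-like cells, given above, did not (a difference of 1.85 points). With 2 libraries against 2 the exact permutation test (two-sided) cannot go below p = 0.333, which these 6 classes reached (adjusted p = 0.444). The T cell-like difference of -0.765 points turned to 1.77 without siCont replicate 2 and to 1.81 with hemoglobin kept, and the mesothelial-like one of 0.786 to -0.091 without siFXR1-LNA replicate 2. In bulk sums of a class, a change within its cells and a change of its makeup cannot be told apart.

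The makeup did differ. Of the macrophage-like clusters, one led by Mt2, Ptges and Saa3 held 0 and 1 cells of the siCont libraries and 2107 and 1922 of the siFXR1-LNA libraries, at member shares of 12.1% and 11.7%. One led by Nr1h3, Slfn4 and Ccl12 held 1020 and 713 siCont cells and 0 and 1 siFXR1-LNA cells, at 8.73% and 8.50%. The largest cluster, led by Alox15, Prg4 and Apoe and present in all libraries, had member shares of 8.25% and 11.0% in siCont and 13.5% and 10.3% in siFXR1-LNA, so that the groups overlapped within it. In 2 smaller clusters present in all libraries the siFXR1-LNA libraries lay above the siCont libraries. The Cacna1d and Nos2 cluster (119, 44, 600 and 405 cells) had the lowest shares of the macrophage-like cells, 3.59%, 1.81%, 6.48% and 4.33%. A cycling cluster led by Pclaf and Birc5 (242, 155, 24 and 44 cells) had 10.5%, 12.5%, 14.9% and 13.9%. Each dendritic cell-like cluster was present in all libraries, with both siFXR1-LNA libraries above both siCont libraries. The Mgl2 and Cd209a cluster had 14.5%, 14.2%, 17.1% and 17.8%. For the Fscn1 and Ccl22 cluster it was 13.4%, 12.8%, 15.7% and 16.3%, and for the Clec9a and Xcr1 cluster 15.4%, 16.2%, 17.2% and 17.96%. A Siglech and Klk1 cluster (35, 16, 13 and 19 cells) had 14.0%, 14.7%, 16.6% and 15.9%. The part of makeup in the dendritic cell-like difference was not tested. Granulocyte-like cells were split at a finer resolution, where a cluster led by Ccl3, Cxcl2 and Stfa2l1 held 7 and 10 siCont and 5405 and 4544 siFXR1-LNA cells. The other, present in all libraries (436, 897, 55 and 261 cells), had 6.96%, 4.51%, 8.42% and 7.41%. With own markers the granulocyte-like difference was 1.35 points. T cell-like cells were also split. A cluster led by Trbv3, Cd3d and Ms4a4b held 1661 and 1790 siCont and 9 and 50 siFXR1-LNA cells. It raised 8 of 8 T cell markers, Cd4, Cd8a and Lef1 included, and is not named for CD4 or CD8 T cells here. A cluster led by Igfbp4, Gm8369 and Gimap5, with Cd8b1 and Lef1 among its leading genes, held 4 and 9 against 733 and 510. A cluster of the Trdc and Tcrg-V6 type, present in all libraries, had member shares of 10.7%, 10.5%, 13.0% and 12.4%, below the Trbv3 and Cd3d cluster in every library.

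Of single members, 10 of 83 were called higher and 0 lower in macrophage-like cells labelled siFXR1-LNA, by edgeR on 14249 genes, of which 9.27% were higher and 10.8% lower. The 10 are a share near the background. At an unadjusted p under 0.05, 41 members were higher (17.3% of all genes) and 1 lower (20.3%). The CPM of 47 members were higher in both siFXR1-LNA libraries than in both siCont libraries (19.4% of all genes) and those of 5 lower (51.9%). Over the members the median log2 difference was 0.51 and 79 of 83 were positive, against a median of -0.0192 over all genes tested. The CPM of Rps28 were 678 and 721 in siCont and 1219 and 1482 in siFXR1-LNA, a difference of 1.19 ± 0.18 (log2 ± SE, edgeR adjusted p = 0.0172). Rpl38 had 567 and 598 against 957 and 1196 (1.12 ± 0.18, edgeR adjusted p = 0.0197). Rps27 had 509 and 597 against 908 and 1107 (1.10 ± 0.19, edgeR adjusted p = 0.0229), and Rpl24 758 and 962 against 1620 and 1507 (1.10 ± 0.20, edgeR adjusted p = 0.0261). Rps27rt had 8.51 and 11.9 against 17.0 and 20.7 (1.12 ± 0.23, edgeR adjusted p = 0.0351). In each of these the groups did not overlap.

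The other 5, named after their values were seen, were Rpl37a, Rpl37, Rps21, Rpl36 and Rpl39, with log2 differences of 1.06, 1.06, 1.02, 0.755 and 0.747. Most of these calls were lost in 3 of the 4 fits without a library. The count of 10 stayed 10 without siCont replicate 2, became 3 without siCont replicate 1 and 0 without siFXR1-LNA replicate 1 or replicate 2, and none of the 10 kept its call in all 4 of these fits. It was 0 in the Alox15, Prg4 and Apoe cluster, where 9 members had an unadjusted p under 0.05, and 0 with at least 500 genes per cell. DESeq2 called 53. Of members that were not called, Rpl7l1 (-0.45), Rps27l (-0.27) and Rps19bp1 (-0.01) were among those with negative values.

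In the other 7 classes edgeR called 0 members in either direction. Among all genes it called 0.891% higher and 1.03% lower in dendritic cell-like cells, 2.93% and 4.99% in mesothelial-like, 0.668% and 1.53% in granulocyte-like, 1.08% and 0.981% in mast cell- or basophil-like, 0.180% and 0.103% in T cell-like, 0.0967% and 0.0161% in B cell-like and 0.00886% each way in erythroid-like cells. At an unadjusted p under 0.05, 32 members were higher (8.88% of all genes) and 1 lower (9.58%) in dendritic cell-like cells. In B cell-like cells 1 was higher (7.60%) and 9 lower (6.71%). No member was lower in the other 5 classes. There 16 were higher in granulocyte-like (7.61% of all genes higher and 10.1% lower), 10 in mesothelial-like (10.1% and 13.5%), 5 of 80 tested in mast cell- or basophil-like (4.47% and 5.20%), 2 in erythroid-like (1.41% and 9.11%) and 2 in T cell-like cells (6.65% and 5.10%).

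Without regard to a test, the CPM of 67 members were higher in both siFXR1-LNA libraries than in both siCont libraries in dendritic cell-like cells (23.2% of all genes) and those of 3 lower (30.5%). In B cell-like cells 7 were higher (23.9%) and 54 lower (25.1%), and in granulocyte-like cells 45 higher (19.9%) and 1 lower (27.2%). In erythroid-like cells 77 were higher (14.5%), on 22 and 57 siFXR1-LNA cells, in mast cell- or basophil-like cells 61 (19.5%) and in mesothelial-like cells 24 (21.7%), with 0 lower in these classes (31.0%, 17.5% and 31.7%). T cell-like cells had 7 higher (18.2%) and 10 lower (28.2%). The members thus leaned to the siFXR1-LNA libraries in macrophage-like, dendritic cell-like, granulocyte-like, erythroid-like and mast cell- or basophil-like cells and to the siCont libraries in B cell-like cells. In mesothelial-like cells, where the summed shares overlapped, 78 of 83 members had positive log2 differences. Their median was 0.236, against -0.0146 over all genes tested.

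DESeq2 called 13 in dendritic cell-like, 6 in mesothelial-like, 5 in erythroid-like and 3 in granulocyte-like cells, all higher. These counts too have no share of all genes beside them. The member medians were 0.656 in granulocyte-like, 0.533 in mast cell- or basophil-like, 0.334 in erythroid-like, 0.241 in dendritic cell-like, 0.236 in mesothelial-like, 0.0272 in T cell-like and -0.227 in B cell-like cells. No test showed that the change in mesothelial-like cells differed from that in the other classes: of 83 members 0 passed, 0 had an unadjusted p under 0.05, and the smallest adjusted p was 0.656 in edgeR, while 0.0854% of all genes were called higher and 0.0213% lower.

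The members called in macrophage-like cells were short, an observation made after the values were seen. Their coding lengths (GENCODE vM21) were 153 to 471 bases with a median of 252, against a median of 468 for the other 73. The 11 members with a coding length under 300 bases are Rpl41, Rpl39, Rps29, Rps28, Rpl38, Rps21, Rps27rt, Rps27l, Rps27, Rpl37a and Rpl37, and 8 of them were among the 10. The log2 difference of the members ran against coding length in macrophage-like cells with a Spearman's rho of -0.272 over 83 genes, and with -0.458 in dendritic cell-like, -0.440 in T cell-like, -0.401 in mesothelial-like and -0.378 in B cell-like cells. It was -0.176 in granulocyte-like, -0.114 in erythroid-like and -0.0989 in mast cell- or basophil-like cells, the last over 80 genes. Genes are not independent, and the classes share libraries.

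**Figure D4:**
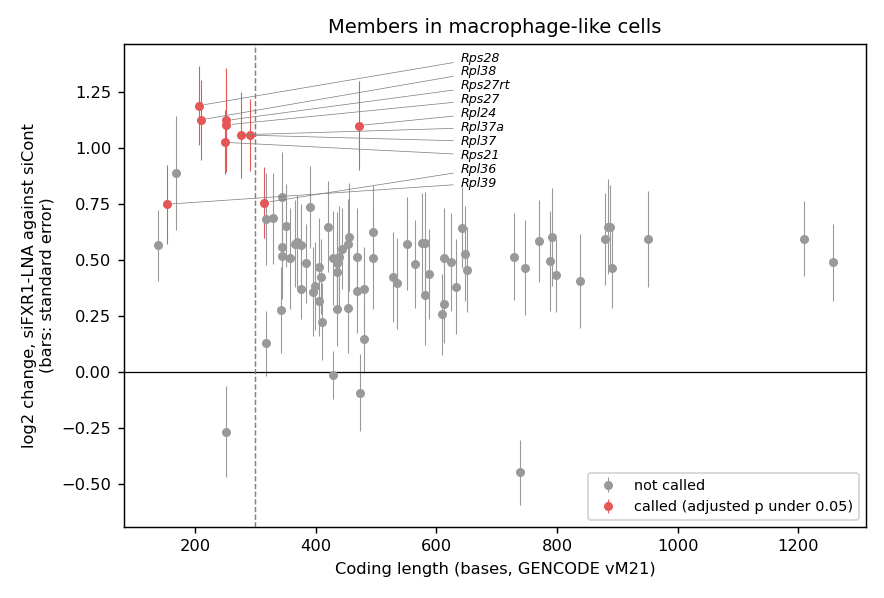
Log2 difference between siFXR1-LNA and siCont in macrophage-like cells (y axis, bars are standard errors from edgeR) against the coding length of 83 members in bases (x axis), with called members in red and the dashed line at 300 bases. Of the 10 called members, 8 lie left of the line, and Rpl36 and Rpl24 right of it.

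The share of the short members was higher in both siFXR1-LNA libraries than in both siCont libraries in 7 of 8 classes, all but erythroid-like. In macrophage-like cells the 11 together took 8.63%, 7.89%, 9.82% and 12.1% of member UMIs. They took 9.07%, 8.48%, 11.2% and 13.7% in B cell-like cells, and in mesothelial-like cells 9.13%, 8.84%, 11.1% and 14.2%. siFXR1-LNA replicate 2 was the highest in 8 of 8 classes. Of single members, Rpl37a, Rpl38, Rpl39, Rps21, Rps27, Rps28 and Rps29 had their highest share of member UMIs in this library in all 8 classes. Other members followed other libraries as widely: Rpl30, Rpl9 and Rps14 were highest in siFXR1-LNA replicate 1 in all 8, Rpl7 and Rps7 in siCont replicate 2 and Rpl27 in siCont replicate 1. With 2 pools per group, library and treatment cannot be told apart here.

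**Figure D5:**
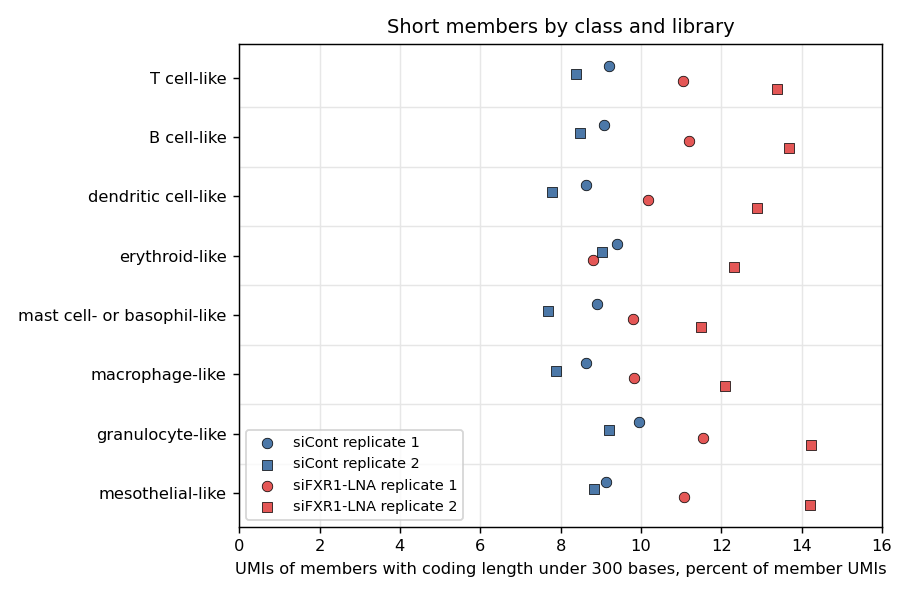
UMIs of the 11 members with a coding length under 300 bases, as a percent of member UMIs (x axis, linear from 0), in 8 classes and 4 libraries. siFXR1-LNA replicate 2 (red squares) is the highest in each class, from 11.5% in mast cell- or basophil-like to 14.2% in granulocyte-like and mesothelial-like cells.

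Cells with at least 2 UMIs of cycling genes such as Mki67 and Top2a were compared with the other cells of their class. In mesothelial-like cells the member share was higher in cycling cells in 4 of 4 libraries, by 0.254 ± 0.221 in log2 (SD; exact p = 0.125, the smallest possible, adjusted 0.375). It was 6.09%, 5.82%, 6.35% and 10.4% in the cycling and 5.95%, 5.06%, 5.43% and 7.07% in the other cells. In T cell-like cells it was lower in 4 of 4 libraries, by 0.196 ± 0.139 (same p). Macrophage-like and granulocyte-like cells were higher in 3 of 4, B cell-like and dendritic cell-like cells in 1 of 4. The 10 cycling genes themselves were lower in siFXR1-LNA in macrophage-like (10 of 10), mesothelial-like (7 of 10) and granulocyte-like cells (2 of 10), where the part of cycling in the member differences was not tested.

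Other genes of the translation machinery did not all go with the members. Of 17 other TOP transcripts, 15 were lower in mesothelial-like cells (median -0.93 in log2), among them Tpt1 (-1.93) and Eif3f (-1.53), where 30.6% of all genes were lower. Of the same list 12 were higher in dendritic cell-like (27.6% of all genes), 11 in T cell-like (18.6%) and 7 in B cell-like cells (17.9%). Eif3f belongs to both this list and the next. Of 29 initiation factors, 22 were lower in mesothelial-like and 14 higher in dendritic cell-like cells, and Eif1, which selects start codons, was 0.68 ± 0.18 higher in granulocyte-like cells. Of 78 mitochondrial ribosomal proteins, 63 were lower in mesothelial-like cells, and 41 were higher in erythroid-like (25.0% of all genes), 32 in macrophage-like (31.0%) and 31 in dendritic cell-like cells, where Mrpl52 was 1.33 ± 0.13 higher. Of 35 ribosome biogenesis factors, 12 were lower, a share near the background, and 5 higher in mesothelial-like cells, where 36.5% of all genes were higher. Polr1a, the large subunit of RNA polymerase I, was higher there by 1.33 ± 0.13, and Fbl, the methyltransferase of ribosomal RNA, was lower by 1.22 ± 0.19. Of 9 regulators, 6 were higher in mesothelial-like cells, among them Rptor (1.47 ± 0.16), an mTORC1 subunit, and Tsc1 (1.34 ± 0.15), its inhibitor. Eif4ebp1, which binds eIF4E and holds back cap-dependent initiation, was 1.65 ± 0.22 higher in granulocyte-like and 1.38 ± 0.21 higher in macrophage-like cells.

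Between the groups, in macrophage-like cells, where 9.27% of all genes were called higher and 10.8% lower, 3 of 17 other TOP transcripts rose, among them Gas5 (1.19 ± 0.27), a host of small nucleolar RNAs, and Eif3e (0.63 ± 0.15), which is also an initiation factor. Of 29 initiation factors 3 rose and 1 fell, Eif2s1 (-0.60 ± 0.10), with the rises near the background. Of the biogenesis factors 10 of 35 fell and 0 rose, led by Bysl (-0.97 ± 0.15) and Tsr1 (-0.85 ± 0.14), both needed for the small subunit. The CPM of Bysl were 16.9 and 17.8 in siCont and 7.60 and 7.40 in siFXR1-LNA. Of 78 mitochondrial ribosomal proteins 2 rose, with Mrpl45 at 1.27 ± 0.12, and 10, near the background, fell, with Mrps6 at -1.35 ± 0.11. Eif4ebp1 rose by 1.25 ± 0.16, from 124 and 138 to 290 and 238 CPM. In mesothelial-like cells, where 2.93% of all genes were called higher and 4.99% lower, 3 of 9 regulators rose. Among them were Eif4ebp1 (1.34 ± 0.29) and Myc (1.2 ± 0.31). Myc is part of the genotype given for Br-Luc, and the part of tumor cells in its rise was not tested. Sbds, which frees the large subunit for joining, also rose there, by 0.89 ± 0.24, as the 1 biogenesis factor called. In the other classes 0 genes of these lists were called by edgeR, apart from the cycling genes above.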

How the data were processed

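Each of the 4 libraries (2 siCont, 2 siFXR1-LNA) was deposited by the authors as a matrix of UMI counts, whole numbers per gene and barcode, from Cell Ranger and mm10. The submitters' processing notes name version 7.0.0, the study's methods another version, and the sources also differ on the kit's version. Groups came from the labels. The members, gene lists and tests were chosen with earlier results of these data known.

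A barcode was retained (132644 in all) if it had between 100 and 4800 detected genes and no more than 15% of UMIs from mitochondrial genes. They were clustered with Seurat 5.3.0 (R 4.3.3) on 2000 variable genes, without symbols that begin with Rpl or Rps, and 50 principal components, at resolution 0.1 and without integration, with a second round on the macrophage and T cell clusters. A cluster was named when at least 3 markers of 1 type were raised at least 2-fold over the other clusters in at least 5% of its cells, a rule written after the clusters were seen. The mesothelial-like cluster tied with epithelial markers and keeps its name from the first round. Scrublet (scanpy 1.11.5) called 0.004% to 0.103% of cells and so did not work. No doublets were removed, and leaving out the 5% of cells with the highest scores was an alternative.

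UMIs were summed per library and class, for classes with at least 10 cells in every library, and hemoglobin was removed. Shares were compared by exact permutation tests. Genes were tested with edgeR 4.0.16 (quasi-likelihood, TMM, filterByExpr, Benjamini-Hochberg over all genes, threshold 0.05), with the library as a block between classes, and the scripts were tested on simulated data. DESeq2 1.42.0, other scalings, filters, cell sets and denominators and leaving out each library were alternatives. Counts of 0 or few UMIs and all shares carry counting error beside the spread between libraries.

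The text names members among the 10 most abundant, up to 5 called members with the largest rise and fall per class between groups, the 5 highest and 5 lowest called relative to the members, members outside the standard subunits, the P stalk and 5S members, and up to 2 called genes of each other list per class. The lists were other TOP transcripts, initiation factors, ribosome biogenesis, mitochondrial ribosomal proteins, regulators and cycling genes. Windows came from RefSeq and coding lengths from GENCODE vM21. Some items that this rule would name are not reported here.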

Additional observations from a re-analysis of the deposited data

Results flagged for a closer look

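The member share changed in opposite directions between the groups in B cell-like and in 5 other classes. It was lower in both siFXR1-LNA libraries than in both siCont libraries in B cell-like cells and higher in both in the other 5. The change in B cell-like cells minus that in the other class, in log2 of the share, was -0.469 for dendritic cell-like, -1.24 for erythroid-like, -0.819 for granulocyte-like, -0.535 for macrophage-like and -0.721 for mast cell- or basophil-like cells. The exact permutation test of each difference gave p = 0.333, the smallest that 2 libraries against 2 allow, so that the design cannot show these differences at a threshold of 0.05. The comparisons share the B cell-like values. Hemoglobin was left out of these totals. With it kept, the B cell-like difference was -0.521 percentage points and the groups overlapped. Hemoglobin made up 29.6% and 41.1% of the UMIs of the siCont libraries and 10.0% and 9.12% of those of the siFXR1-LNA libraries, and its part was not tested.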

How the results depend on the processing

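Of the member share differences (siFXR1-LNA minus siCont, percentage points), that of mast cell- or basophil-like cells turned to -0.831 with cells named from their own markers. That of T cell-like cells turned to 1.81 with hemoglobin kept, 0.441 with own markers and 1.77 without siCont replicate 2. That of mesothelial-like cells turned to -0.091 without siFXR1-LNA replicate 2. Leaving out 1 library gave ranges of -3.59 to -2.20 in B cell-like, 2.31 to 2.91 in dendritic cell-like, 6.00 to 12.4 in erythroid-like, 1.57 to 3.98 in granulocyte-like, 1.26 to 3.04 in macrophage-like, 2.55 to 5.09 in mast cell- or basophil-like, -0.091 to 1.66 in mesothelial-like and -3.30 to 1.77 in T cell-like cells. The pairs of classes that differed one way in every library numbered 16 to 23 over the alternatives, against 19. Members called higher between the groups, summed over classes, went from 10 to 36 with no filter on low counts, 80 with DESeq2 and 1 with at least 500 genes per cell, and lower calls from 0 to 1 with total UMIs. The shares of all genes called under these alternatives are not given here. Without 1 library the higher calls numbered 0 to 17. Class against class, lower calls went from 196 to 84 with own markers. Relative to the members, 70 higher calls became 32 to 58 and 81 lower calls 32 to 69 without 1 library. Rps27rt in mesothelial-like cells turned to 0.65 on this scale when ribosomal protein symbols were allowed among the variable genes, which let in 1 symbol, Rpl39l, and 0 members. Erythroid-like cells gave no value with at least 500 genes per cell. Apart from constructions with fewer cells or libraries, the cause of these shifts was not tested.

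With the replicate number as a block, 34 members were called higher between the groups, against 10 without it, and 1 lower. The share of all genes called with the block is not given here. The labels name no shared batch. The deviations of same-numbered libraries correlated at 0.0137 to 0.369 over the classes, all positive. With 2 pairs only, whether these libraries share more than a number was not tested.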
